A study of Mus musculus with 12 samples.

Results

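The 10 genes described here encode enzymes that handle methionine, homocysteine and cysteine in liver: Mat1a, Gnmt, Pemt, Ahcy, Bhmt, Bhmt2, Cbs, Cth, Cdo1 and Csad. They were listed by name as genes of this pathway, with earlier results of these data known, and each was read by the probe set with the highest mean for its symbol. All 10 were measured, out of 11861 genes with a probe set on 12 expression arrays. The arrays held RNA from spheroids of primary hepatocytes of C57BL/6 mice, an inbred laboratory strain. Spheroids are compact aggregates that form when hepatocytes are kept from attaching, and they serve as a longer-lived model of liver cells in culture. The cells came from 4 preparations, male preparations 1 and 2 and female preparations 1 and 2, each a cryopreserved pool of hepatocytes from 3 animals. Spheroids of each preparation were taken 1, 7 and 14 days after they had formed, which gives 6 groups by sex and day with 2 arrays in each. All groups share the strain, the freezing and the spheroid format. Fresh liver and freshly isolated cells were not analysed here, so day 1 is the earliest point and not a native state, and single animals within a pool cannot be told apart. The labels give no age for the animals.

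Methionine is first turned into S-adenosylmethionine, the methyl donor of the cell, and every methyl transfer from it leaves S-adenosylhomocysteine, which is split to homocysteine. Homocysteine is then either methylated back to methionine or passed through cystathionine to cysteine, the source of glutathione and taurine. Liver carries out much of the body's methionine turnover, and several of these enzymes are most abundant in hepatocytes.

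Promoter sequences are shown for 5 members, chosen among those with a promoter available. Gnmt, Pemt, Csad and Bhmt2 stood lower in every male than in every female preparation at each day. Bhmt and Bhmt2, neighbouring genes on mouse chromosome 13, both rose over the culture, as did Csad. Each sequence runs 5' to 3' on the gene's strand, from 250 bases before the annotated start to 50 after it, and comes from RefSeq for the build GRCm38.p6. The build of the array's probe sets is unstated. Of the 10 members 7 had a promoter in the table, and Mat1a, Cth and Cdo1 had none. In all 9 promoters were held because Pemt and Csad each have 2 starts, of which the start farther upstream is shown. All 5 lie on the minus strand: Gnmt at chr17:46729116-46729415, Pemt at chr11:60040139-60040438, Csad at chr15:102205003-102205302, Bhmt at chr13:93637709-93638008 and Bhmt2 at chr13:93674253-93674552. Capitals mark matches to the motifs searched.
Gnmt: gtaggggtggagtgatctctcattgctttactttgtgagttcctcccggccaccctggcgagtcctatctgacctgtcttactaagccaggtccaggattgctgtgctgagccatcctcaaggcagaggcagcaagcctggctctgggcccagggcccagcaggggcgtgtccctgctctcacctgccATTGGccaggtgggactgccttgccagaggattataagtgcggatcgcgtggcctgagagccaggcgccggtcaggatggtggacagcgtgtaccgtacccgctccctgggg
Pemt: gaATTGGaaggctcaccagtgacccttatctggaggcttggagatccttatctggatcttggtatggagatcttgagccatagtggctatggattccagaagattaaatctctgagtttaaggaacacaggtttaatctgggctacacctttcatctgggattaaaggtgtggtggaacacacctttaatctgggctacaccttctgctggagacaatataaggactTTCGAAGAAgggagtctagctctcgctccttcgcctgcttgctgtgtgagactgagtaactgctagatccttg
Csad: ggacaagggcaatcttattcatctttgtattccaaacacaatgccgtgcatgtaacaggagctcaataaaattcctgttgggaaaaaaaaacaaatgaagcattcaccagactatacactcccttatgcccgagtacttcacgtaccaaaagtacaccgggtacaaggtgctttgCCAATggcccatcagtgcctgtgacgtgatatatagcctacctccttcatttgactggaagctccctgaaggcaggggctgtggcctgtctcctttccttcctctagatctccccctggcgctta
Bhmt: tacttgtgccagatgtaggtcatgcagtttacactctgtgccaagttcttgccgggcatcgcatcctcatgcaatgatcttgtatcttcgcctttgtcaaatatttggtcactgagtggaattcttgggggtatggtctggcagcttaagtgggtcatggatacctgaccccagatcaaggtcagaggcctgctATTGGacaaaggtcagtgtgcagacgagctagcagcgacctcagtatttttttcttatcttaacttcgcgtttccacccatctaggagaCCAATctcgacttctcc
Bhmt2: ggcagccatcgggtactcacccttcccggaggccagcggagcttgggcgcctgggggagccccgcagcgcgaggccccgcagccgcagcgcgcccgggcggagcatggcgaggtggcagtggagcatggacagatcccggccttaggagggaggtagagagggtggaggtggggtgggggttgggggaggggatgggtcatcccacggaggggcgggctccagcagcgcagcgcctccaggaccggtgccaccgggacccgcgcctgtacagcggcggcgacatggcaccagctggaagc

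The motifs, read on both strands, were CCAAT (NFY), TTCNNNGAA (STAT5), TGACNNNGC (NRF2), TGATGNAA (ATF4) and CAAAGTCC (HNF4A), where N is any base. Among 32851 promoters of 300 bases in the table, 37.4% held CCAAT, 8.3% TTCNNNGAA, 12.4% TGACNNNGC, 3.97% TGATGNAA and 1.42% CAAAGTCC. Gnmt, Pemt and Csad each held 1 CCAAT match and Bhmt held 2. CCAAT was not particular to the members shown, since the promoter of Ahcy held 1 match and that of Cbs 2. The second starts of Pemt and Csad held 0 matches to any of the motifs. Pemt also held TTCGAAGAA, a match to the STAT5 letters that ended 15 bases before the start. Bhmt2 held none of the 5 motifs. The matches describe these letters only, since no binding was measured.

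Values below are the deposited log2 levels of RNA, on which a difference of 1 is a 2-fold difference. Enzyme amount and activity were not measured. The median of an array ran from 7.48 to 7.54, the 2 arrays of a group correlated over all genes with r between 0.984 and 0.99, and 0 pairs of arrays held identical values. Genes are not independent replicates, so these correlations describe the arrays only. The 3 measured Y-linked genes (Kdm5d, Eif2s3y and Uty) summed to 628 to 725 on the linear scale in male arrays and 9.32 to 12.9 in female arrays, which fits the labelled sexes. Summed linear levels of 8 measured hepatocyte markers (of 10 listed) ranged from 29040 to 30848 at day 1, 30318 to 32309 at day 7 and 28848 to 31773 at day 14, and 0 of the 8 passed the test between any of these days. Such sums are carried by the highest genes, here Alb at 12.71 to 12.78, and say little of low ones. Pck1 went from a mean of 5.71 at day 1 to 4.38 at day 14 in males and from 5.17 to 5.46 in females. Stellate cell and fibroblast markers, all 10 measured, summed to 3053 to 3491 at day 1, 999 to 2637 at day 7 and 371 to 2587 at day 14, and 6 of them were lower at day 14 than at day 1. Between these days the group mean of Lum fell from 7.34 to 4.73 in males and rose from 7.17 to 8.27 in females. That of Acta2 fell from 7.58 to 4.40 in males and stood at 6.99 and 7.25 in females. The means of the others fell in both sexes. Kupffer cell and macrophage markers, 9 of 10 measured, summed to 174 to 431 at day 1, 371 to 1165 at day 7 and 393 to 1921 at day 14. Of the Kupffer markers 1 was higher at day 14 than at day 1. Cholangiocyte markers, 4 of 7 measured, summed to 1303 to 1751 at day 1, 1022 to 1468 at day 7 and 1044 to 1536 at day 14, and 1 was higher at day 7 and 2 at day 14 than at day 1. Krt7 and Sox9 carried that sum, while the median change of the 4 genes in day 14 against day 1 was 0.49. Sinusoidal endothelial markers, 5 of 8 measured, summed to 242 to 479, 119 to 528 and 73.4 to 264 at days 1, 7 and 14, and 3 were lower at day 14 than at day 1. The part of these other cells in the results on the 10 genes was not tested, and in bulk RNA fewer cells of a type and less RNA per cell cannot be told apart.

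The lowest value of any member on any array was 7.71 (Csad), while every probe set in the table reached at least 4.79 somewhere, so no member lay near the low end. Ahcy, Bhmt and Cdo1 lay between 11.25 and 12.20 on every array, close to the highest value of the table, 12.84. The width of the range over the 12 arrays differed greatly between members: 2.28 for Csad, 1.60 for Pemt, 1.35 for Gnmt, 1.15 for Mat1a, 1.12 for Bhmt2 and 0.94 for Bhmt. It was 0.79 for Cth, 0.46 for Cbs, 0.32 for Cdo1 and 0.12 for Ahcy. By day means, Mat1a, Bhmt and Bhmt2 stood highest at day 14, Csad, Pemt and Gnmt at day 7, and Cth stood lowest at day 14.

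**Figure D1:**
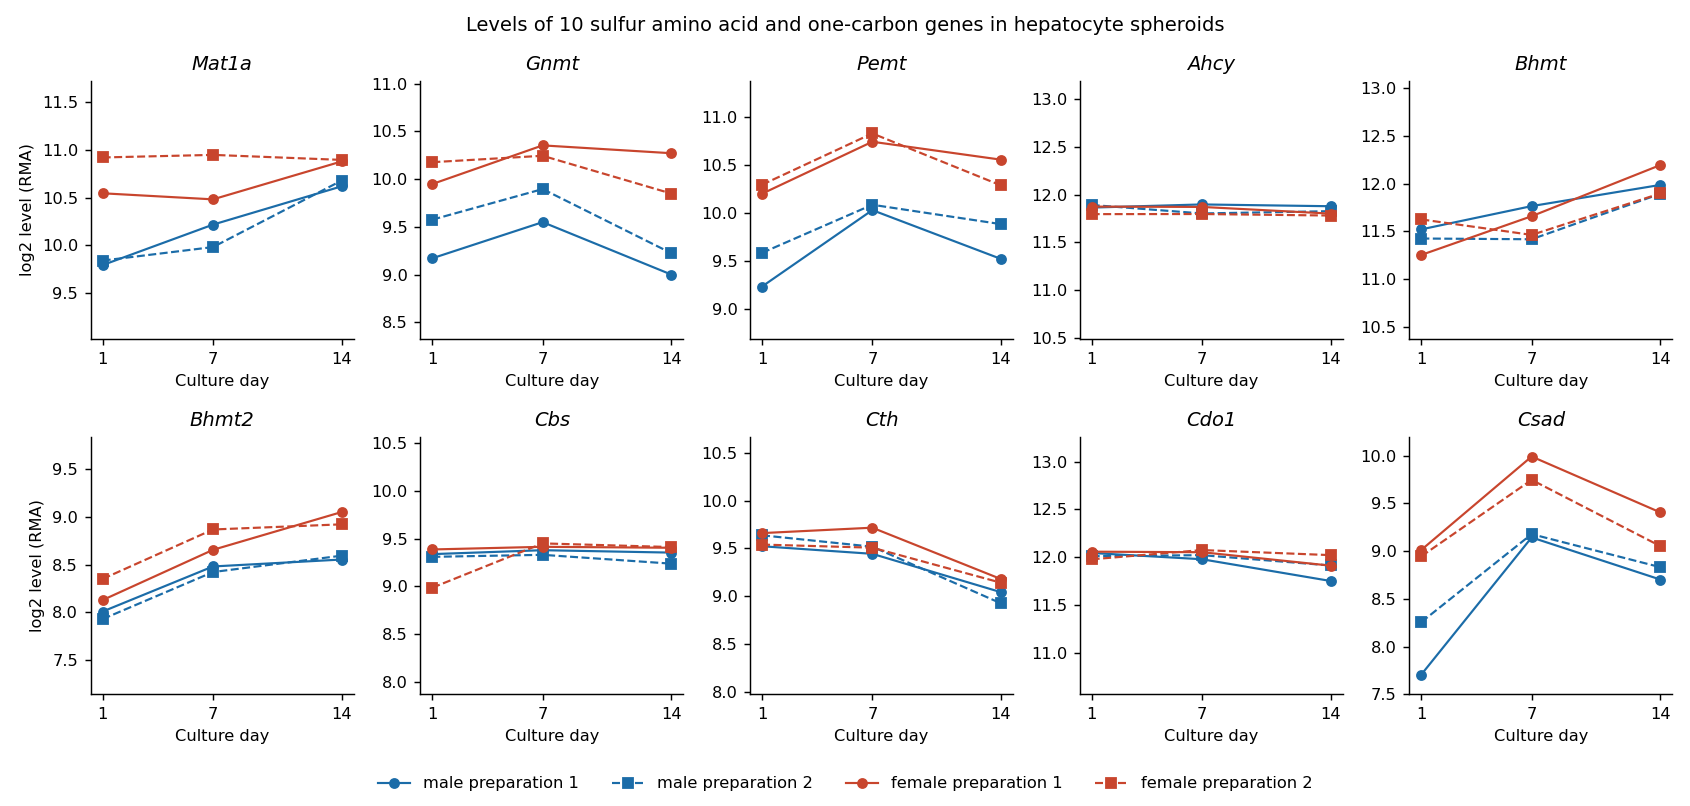
Deposited log2 level of each of the 10 genes (vertical axis, RMA log2 units, the same span of 2.7 in every panel) against culture day (horizontal axis), with 1 line for each of the 4 preparations. Csad ran from 7.71 to 9.99 and Ahcy from 11.78 to 11.90 over the 12 arrays, and the blue male lines lay below the red female lines throughout in Mat1a, Gnmt, Pemt, Bhmt2 and Csad.

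The day comparisons asked how the culture's age bears on the RNA levels of these enzymes. Each is the change within a sex averaged over the sexes, with its standard error from limma over all 12 arrays (4 preparations per day), and passes where the p, adjusted over all 11861 genes by Benjamini-Hochberg, is under 0.05. Day 7 against day 1 and day 14 against day 1 share the day 1 arrays, and the 2 weeks share those of day 7. In day 7 against day 1, 3 of the 10 members rose, where 2.74% of all genes did, and 0 fell, where 1.98% did (4.72% in either direction). In day 14 against day 1, 4 rose (7.59% of all genes) and 1 fell (6.8%), where 14.4% passed in either direction. In day 14 against day 7, 0 rose (0.304%) and 1 fell (0.185%). The median change over the members was 0.14, 0.17 and -0.09 for day 7 against day 1, day 14 against day 1 and day 14 against day 7, and that over all genes lay within 0.01 of 0 each time. With 1 preparation left out the members called were 0 to 1 for day 7 against day 1, 1 to 4 for day 14 against day 1 and 0 for day 14 against day 7, and the calls over all genes were fewer too. The single calls lost are given gene by gene below.

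**Figure D2:**
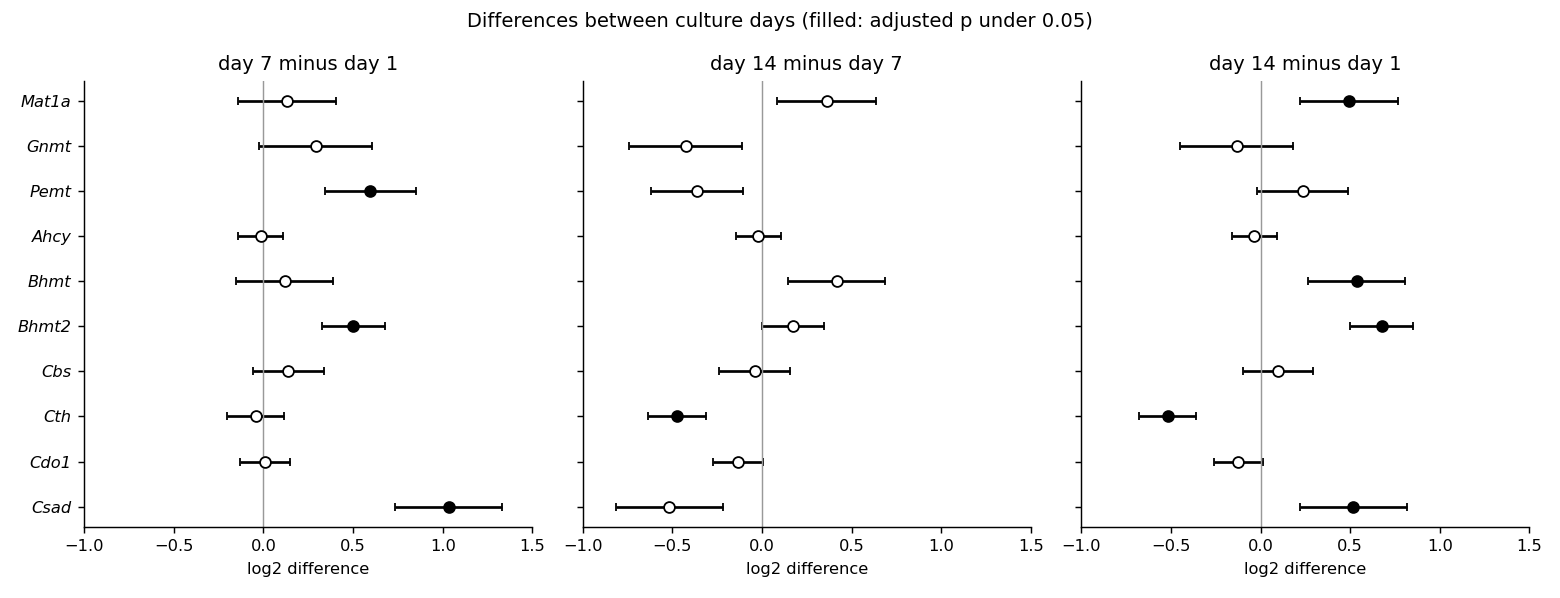
Log2 difference between culture days for the 10 genes (horizontal axis; points are limma estimates over 4 preparations per day, bars their 95% confidence intervals), for day 7 minus day 1, day 14 minus day 7 and day 14 minus day 1. Filled points passed at an adjusted p under 0.05: Csad, Pemt and Bhmt2 in the left panel, Cth in the middle, and Bhmt2, Bhmt, Csad, Mat1a and Cth in the right.

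Mat1a, which makes S-adenosylmethionine from methionine in adult liver, rose over the culture. It stood at 9.79 and 9.84 in male and 10.55 and 10.92 in female preparations 1 and 2 at day 1. At day 7 it stood at 10.22 and 9.98 in the males and 10.48 and 10.95 in the females. At day 14 all 4 preparations lay within 10.62 to 10.90, with the males at 10.62 and 10.68 and the females at 10.88 and 10.90. The spread between the preparations was thus narrowest at day 14 (SD 0.14, n = 4), against 0.41 at day 7 and 0.55 at day 1. Mat1a rose by 0.49 ± 0.12 in day 14 against day 1, a 1.41-fold change (adjusted p = 0.0287). It was higher at day 14 in 3 of 4 preparations, by 0.82 and 0.84 in the males and 0.33 in female 1, and differed by -0.03 in female 2. The call was lost without male 1 (0.50, adjusted p = 0.194), male 2 (0.49, 0.183), female 1 (0.40, 0.0681) or male 1's day 14 array (0.51, 0.0682). Neither week passed alone, with 0.13 ± 0.12 for day 7 against day 1 and 0.36 ± 0.12 for day 14 against day 7 (adjusted p = 0.616 and 0.229).

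Gnmt, which spends S-adenosylmethionine on glycine to make sarcosine, did not pass in any day comparison. It stood at 9.17 and 9.57 in the males and 9.95 and 10.18 in the females at day 1. At day 7 it was 9.55 and 9.89 in the males and 10.35 and 10.24 in the females, above day 1 in each of the 4 preparations. At day 14 it was 9.0 and 9.22 in the males and 10.27 and 9.85 in the females, below day 7 in each. Its differences were 0.29 ± 0.14 for day 7 against day 1 (adjusted p = 0.289), -0.42 ± 0.14 for day 14 against day 7 (0.216) and -0.13 ± 0.14 for day 14 against day 1 (0.592). The last changed sign without female 2 (0.03).

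Pemt, which methylates phosphatidylethanolamine to phosphatidylcholine and is a large user of S-adenosylmethionine in liver, rose in the first week. It stood at 9.23 and 9.58 in the males and 10.20 and 10.30 in the females at day 1, 10.03 and 10.09 in the males and 10.75 and 10.83 in the females at day 7, and 9.52 and 9.88 in the males and 10.56 and 10.29 in the females at day 14. Every preparation was higher at day 7 than at day 1 and lower at day 14 than at day 7. Pemt rose by 0.60 ± 0.11 in day 7 against day 1 (1.51-fold, adjusted p = 0.0237). The difference was -0.36 ± 0.11 for day 14 against day 7 (adjusted p = 0.197) and 0.23 ± 0.11 for day 14 against day 1 (adjusted p = 0.211). The day 7 call was lost without male 1 (0.52, adjusted p = 0.154), male 2 (0.67, 0.0804), female 1 (0.59, 0.14) or female 2 (0.60, 0.144). Pemt had 5 probe sets where every other member had 1. Over the 5 probe sets the difference of day 7 minus day 1 ran from 0.54 to 0.63 and that of day 14 minus day 7 from -0.37 to -0.30.

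Ahcy, which splits S-adenosylhomocysteine, varied least. Its 12 values lay between 11.78 and 11.90, and the day means were 11.86 ± 0.04, 11.84 ± 0.05 and 11.82 ± 0.04 at days 1, 7 and 14 (SD, n = 4). Day 14 differed from day 1 by -0.03, with a 95% confidence interval of -0.16 to 0.09 (adjusted p = 0.741).

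The RNA of both homocysteine methyltransferases of the list rose. Bhmt, which uses betaine to methylate homocysteine, stood at 11.52 and 11.43 in the males and 11.25 and 11.63 in the females at day 1, 11.77 and 11.42 in the males and 11.66 and 11.46 in the females at day 7, and 11.99 and 11.89 in the males and 12.20 and 11.90 in the females at day 14. The lowest day 14 value lay above the highest value of either earlier day. Bhmt rose by 0.54 ± 0.12 in day 14 against day 1 (1.45-fold, adjusted p = 0.0192), in 4 of 4 preparations. The second week alone gave 0.42 ± 0.12 (adjusted p = 0.172), and day 7 against day 1 gave 0.12 ± 0.12 (adjusted p = 0.652), with 2 preparations up and 2 down. The day 14 call was lost without male 1 (0.54, adjusted p = 0.131), male 2 (0.54, 0.126), female 1 (0.37, 0.133) or male 1's day 14 array (0.51, 0.0621). Without female 1 the difference of day 7 against day 1 was -0.02 (adjusted p = 0.951).

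Bhmt2, whose enzyme methylates homocysteine from S-methylmethionine, rose at both later days. It stood at 8.01 and 7.93 in the males and 8.13 and 8.35 in the females at day 1, 8.48 and 8.42 in the males and 8.66 and 8.87 in the females at day 7, and 8.55 and 8.59 in the males and 9.05 and 8.92 in the females at day 14. All values of days 7 and 14 lay above all values of day 1. Bhmt2 rose by 0.50 ± 0.08 in day 7 against day 1 (1.42-fold, adjusted p = 0.0114), by between 0.47 and 0.53 in each preparation. It rose by 0.68 ± 0.08 in day 14 against day 1 (1.60-fold, adjusted p = 0.00111), and the second week alone gave 0.17 ± 0.08 (adjusted p = 0.367). The rise to day 14 passed with any 1 preparation left out (0.59 to 0.76, adjusted p = 0.00975 to 0.0425). The rise to day 7 kept its size but lost its call without male 1 (adjusted p = 0.179), male 2 (0.159), female 1 (0.0619) or female 2 (0.0625).

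The genes of the transsulfuration enzymes differed from each other. Cth, which releases cysteine from cystathionine, fell in the second week. It stood at 9.52 and 9.64 in the males and 9.66 and 9.54 in the females at day 1, 9.44 and 9.52 in the males and 9.72 and 9.51 in the females at day 7, and 9.04 and 8.92 in the males and 9.18 and 9.14 in the females at day 14. The highest day 14 value lay below the lowest value of both earlier days. Cth fell by 0.48 ± 0.07 in day 14 against day 7 (adjusted p = 0.0323) and fell by 0.52 ± 0.07 in day 14 against day 1 (adjusted p = 0.00242), in 4 of 4 preparations each time. Day 7 differed from day 1 by -0.04 ± 0.07 (adjusted p = 0.799). Cth was the only member that passed between days 14 and 7, a comparison in which 0.489% of all genes passed. That call was lost without male 1 (-0.52, adjusted p = 0.257), male 2 (-0.43, 0.277), female 1 (-0.43, 0.193), female 2 (-0.52, 0.16) or male 1's day 14 array (-0.50, 0.0849). The fall from day 1 lost its call without male 2 (-0.46, adjusted p = 0.0629).

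Cbs, which joins homocysteine to serine and commits it to cysteine, lay between 9.24 and 9.45 on 11 of the 12 arrays and at 8.99 in female 2 at day 1. Its day means were 9.26 ± 0.18, 9.39 ± 0.05 and 9.35 ± 0.08 at days 1, 7 and 14 (SD, n = 4). Day 14 differed from day 1 by 0.10 ± 0.09 (95% confidence interval -0.10 to 0.29, adjusted p = 0.52), and by -0.005 without female 2.

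Cysteine is carried to taurine by Cdo1, which oxidizes it to cysteine sulfinate, and Csad, which removes the carboxyl group of that product. Cdo1 lay between 11.75 and 12.07 on every array. Its day means were 12.02 ± 0.04, 12.03 ± 0.04 and 11.90 ± 0.11 at days 1, 7 and 14 (SD, n = 4), and the lowest value was that of male 1 at day 14. Day 14 differed from day 1 by -0.12 ± 0.06 (adjusted p = 0.226), a value that passed with a trended and robust estimate of the spread (adjusted p = 0.0478).

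Csad had the widest range of the 10 members and the largest difference in day 7 against day 1. It stood at 7.71 and 8.26 in the males and 9.01 and 8.95 in the females at day 1. At day 7 it stood at 9.14 and 9.18 in the males and 9.99 and 9.75 in the females. At day 14 it stood at 8.70 and 8.83 in the males and 9.41 and 9.05 in the females. The order of the 6 group means was female day 7 (9.87), female day 14 (9.23), male day 7 (9.16), female day 1 (8.98), male day 14 (8.77) and male day 1 (7.98). The arrays of female day 14 spanned both male day 7 values, so these neighbours overlapped. Csad rose by 1.03 ± 0.13 in day 7 against day 1 (2.05-fold, adjusted p = 0.00611), by 1.44 and 0.92 in male preparations 1 and 2 and by 0.98 and 0.80 in female preparations 1 and 2. All 4 preparations were lower at day 14 than at day 7, with a difference of -0.52 ± 0.13 that did not pass (adjusted p = 0.143, and 0.0431 with a trended and robust spread). Day 14 remained above day 1, by 0.52 ± 0.13 (1.43-fold, adjusted p = 0.0328), in 4 of 4 preparations. The rise to day 7 lost its call without male 1 (0.90, adjusted p = 0.0821), female 1 (0.99, 0.07) or female 2 (1.08, 0.0625). The rise to day 14 lost it without male 1 (0.41, adjusted p = 0.174), male 2 (0.62, 0.0666), female 1 (0.45, 0.166), female 2 (0.59, 0.102) or male 1's day 14 array (0.55, 0.0668).

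The sexes were compared to ask whether male and female spheroids carry the RNA of these enzymes at different levels. In Mat1a, Gnmt, Pemt, Bhmt2 and Csad both male preparations stood below both female preparations at all 3 days, a pattern held by 5.5% of all genes, and 0 of the 10 members showed the opposite, which 5.81% of genes did. Averaged over the days of each preparation, Pemt stood at 9.72 ± 0.18 in males and 10.49 ± 0.02 in females (SD, n = 2 each), a difference of -0.77 ± 0.10 (SE), so that the male level was 0.588 times the female one. Gnmt stood at 9.40 ± 0.23 in males and 10.14 ± 0.07 in females (-0.74 ± 0.13). Csad stood at 8.64 ± 0.17 in males and 9.36 ± 0.16 in females (-0.72 ± 0.12). Mat1a stood at 10.19 ± 0.03 in males and 10.78 ± 0.20 in females (-0.59 ± 0.11), and Bhmt2 at 8.33 ± 0.02 in males and 8.66 ± 0.07 in females (-0.33 ± 0.07). None of these 5 differences passed over all genes with limma (adjusted p = 0.0789, 0.0976, 0.094, 0.109 and 0.117, in the order given), although all 5 had an unadjusted p under 0.05, as 19.8% of all genes did. In this comparison of 2 preparations a sex 0.177% of all genes passed, 0.0927% higher and 0.0843% lower in males.

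The calls between the sexes moved with the estimate of the spread. With a trended and robust spread all 5 passed (adjusted p = 0.00215 for Pemt, 0.0285 for Gnmt, 0.00964 for Csad, 0.0235 for Mat1a and 0.0112 for Bhmt2), where 8.21% of all genes did. With only genes of a mean level of at least 6, Pemt (0.0284), Gnmt (0.0412) and Csad (0.0397) passed, where 3.16% of those genes did. The differences of the other 5 members over all days ran from -0.11 (Cth) to 0.04 (Ahcy), with an adjusted p of 0.462 or more. The 95% confidence intervals were -0.12 to 0.20 for Ahcy, -0.24 to 0.21 for Bhmt, -0.21 to 0.18 for Cbs, -0.30 to 0.08 for Cth and -0.22 to 0.10 for Cdo1. Without male 2 the difference of Bhmt was 0.08 and that of Cbs 0.01, and without female 1 they were 0.01 and 0.04, against -0.01 and -0.02 with all 4 preparations.

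**Figure D3:**
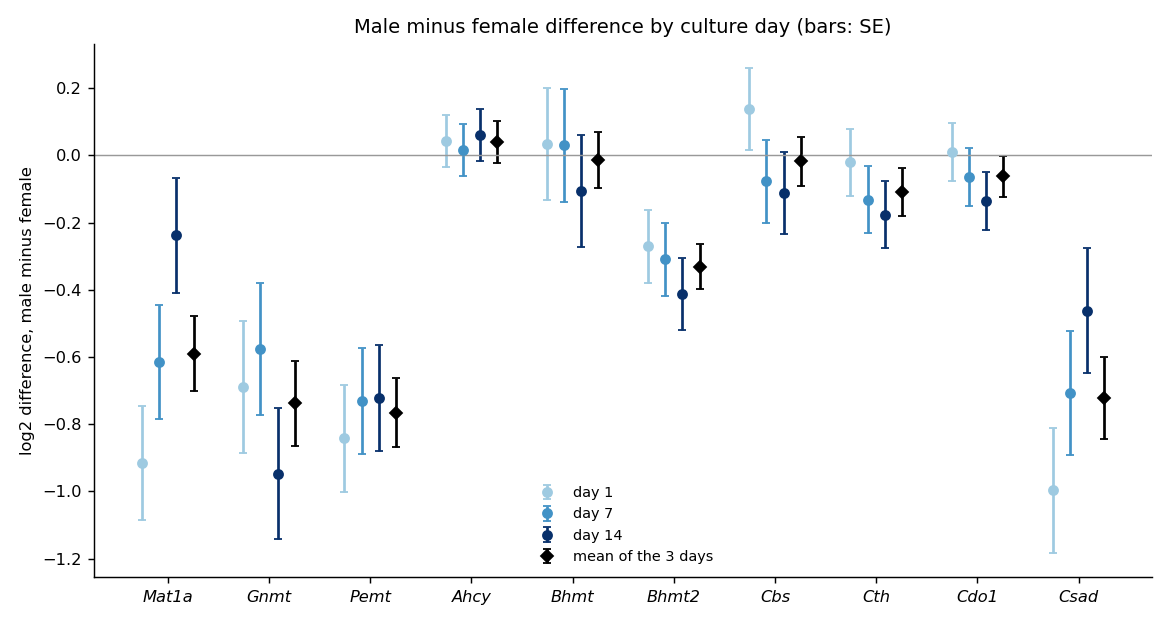
Male minus female log2 difference (vertical axis) of the 10 genes at days 1, 7 and 14 (circles, light to dark, 2 preparations per sex) and over the mean of the 3 days (diamonds), with standard errors as bars. Mat1a, Gnmt, Pemt, Bhmt2 and Csad lay below 0 at each day, with means over the days from -0.77 (Pemt) to -0.33 (Bhmt2).

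Within single days 0 of the 10 members passed at day 1, 7 or 14, where 0.767%, 0.354% and 1.06% of all genes did. The genes higher in males were 0.346%, 0.194% and 0.253%, those lower 0.422%, 0.16% and 0.809%, and 5, 5 and 4 members had an unadjusted p under 0.05, where 13.5%, 13.2% and 14.9% of all genes had one. At day 1 Csad differed by -0.997 ± 0.19, Mat1a by -0.92 ± 0.17 and Pemt by -0.84 ± 0.16 (adjusted p = 0.0554, 0.0555 and 0.0557). At day 14 Gnmt differed by -0.95 ± 0.20 (adjusted p = 0.0676) and Pemt by -0.72 ± 0.16 (adjusted p = 0.0811). None of these 5 values passed, but among genes of a mean level of at least 6 all 5 did, where 1.41% of those genes passed at day 1 and 1.92% at day 14. Stellate and fibroblast marker sums ran from 371 to 3292 in male arrays and from 2421 to 3491 in female arrays, and endothelial sums from 73.4 to 466 in male and 160 to 528 in female arrays. These ranges pool the days. The group means of all 5 measured endothelial markers were lower in males at days 1, 7 and 14. Their median male minus female difference over all days was -0.91, and 0 of them passed. At day 1 all stellate and fibroblast sums lay between 3053 and 3491, and single markers differed between the sexes in both directions. At day 14 the group means of all 10 markers were lower in males, from Reln (6.22 against 6.23 in females) to Lum (4.73 against 8.27). Kupffer sums ran from 219 to 675 in male and 174 to 1921 in female arrays, and hepatocyte sums from 28848 to 30926 in male and 29997 to 32309 in female arrays. The part of these differences in the sex results was not tested.

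Whether the change over days itself differed between the sexes was tested directly, and 0 of the 10 members passed in any of the 3 intervals. The same test passed for 0% of all genes in each interval, and 1, 0 and 0 members had an unadjusted p under 0.05 for day 14 against day 1, day 14 against day 7 and day 7 against day 1, where 6.87%, 4.09% and 4.76% of all genes had one. The 1 of 10 is near that background. It was Mat1a, whose change in day 14 against day 1 was 0.83 on average in males and 0.15 in females, a difference of 0.68 ± 0.24 (adjusted p = 0.566). The male minus female difference of Mat1a was -0.92 at day 1, -0.61 at day 7 and -0.24 at day 14. Csad changed over the same interval by 0.78 in males and 0.25 in females, a difference of 0.54 ± 0.26 (adjusted p = 0.777).

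Likeness was measured as the root mean square difference over the 12 arrays after each gene was centred on its own mean, for the 3 members with the widest range of group means. The search left out the members themselves and genes with only a provisional name. The arrays share preparations and days, so this describes the patterns only. The genes most like Gnmt were Gstt3, a glutathione transferase (0.0992), Ppp1r3b, which targets protein phosphatase to glycogen (0.164), and Slc17a8, a glutamate transporter (0.173). Those most like Pemt were Aspdh (0.107), Gys2, the liver glycogen synthase (0.14), and Acsm3, an acyl-CoA synthetase (0.148). Those most like Csad were Prodh2, a hydroxyproline dehydrogenase (0.256), Tmem30b (0.258) and Psca (0.264). Among the members, Gnmt and Pemt differed by 0.204, and Pemt ranked 18 among all genes by likeness to Gnmt. Pemt differed from Csad by 0.224, less than any of the 3 genes named for Csad, while Csad ranked 32 by likeness to Pemt. The closest member pairs joined genes that varied little, Ahcy with Cdo1 (0.101) and Ahcy with Cbs (0.117).

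Beyond the 10 members, 95 gene symbols of the surrounding pathways were listed, with Sqor and Sqrdl naming 1 gene and Ept1 and Selenoi another. Of these symbols 83 were measured. In day 14 against day 1, 15 of them rose and 9 fell, where 7.59% and 6.8% of all genes did, and the median of 0.03 lay beside 0.01 for all genes. Of 10 genes of betaine supply and breakdown 5 rose and 0 fell (median 0.28). Slc44a2, a choline transporter-like protein, rose by 1.01 ± 0.12, Pipox, an oxidase of sarcosine and pipecolate, by 0.47 ± 0.11, and Aldh9a1, an aldehyde dehydrogenase, by 0.41 ± 0.06. Of 12 genes of glutathione metabolism and of the amino acid transport listed with it, 4 rose and 1 fell (median 0.22). Slc7a11, the cystine importer, rose by 0.67 ± 0.10 and Oplah, which returns oxoproline to glutamate, by 0.42 ± 0.07, while Chac1, which degrades glutathione, fell by 0.99 ± 0.19.

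Of 23 genes of serine and folate one-carbon metabolism 2 rose and 4 fell between days 14 and 1 (median 0.02). Phgdh and Psph, the first and last enzymes of serine synthesis, fell by 0.91 ± 0.12 and 0.47 ± 0.11, and Mthfd2 of the mitochondrial folate path fell by 0.45 ± 0.12. Of 11 genes of cysteine sulfur oxidation and taurine 2 rose and 1 fell (median -0.01). Fmo1, a monooxygenase that oxidizes hypotaurine, rose by 0.64 ± 0.14 and the sulfurtransferase Tst by 0.43 ± 0.10, and Got1, an aspartate aminotransferase, fell by 0.42 ± 0.07. Fmo1 had also risen by 0.77 ± 0.14 at day 7 against day 1 (adjusted p = 0.019), a call lost without female 1 (0.151) or female 2 (0.153). Its male minus female difference passed at day 1, at -1.16 ± 0.19 (adjusted p = 0.0389), a call lost whichever preparation was left out (0.0652 to 0.311). Over all days the difference was -0.99 ± 0.12 (adjusted p = 0.0743), which passed with a trended and robust spread (0.00481) and among genes of a mean level of at least 6 (0.0248). Of 15 genes of methionine salvage, S-adenosylmethionine use and polyamines 2 rose and 1 fell (median 0.01), with Tpmt, a thiol methyltransferase, at 0.39 ± 0.08, Gamt of creatine synthesis at 0.31 ± 0.07 and Adi1 of methionine salvage at -0.40 ± 0.06. Of 12 phosphatidylcholine and choline genes 2 fell and 0 rose (median 0.03), the choline kinase Chka by 0.48 ± 0.12 and the ethanolamine kinase Etnk1 by 0.36 ± 0.08.

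The 17 genes named from these lists were picked for passing in day 14 against day 1 with the largest changes. Their adjusted p in that comparison, from 0.00147 (Slc44a2) to 0.0363 (Mthfd2), was thus under 0.05 by the choice. In each gene 4 of 4 preparations shared the direction, which the choice also favours. Slc44a2 and Phgdh passed with any 1 preparation left out, and the other 15 lost their call in at least 1 such fit, at an adjusted p between 0.0531 and 0.265 and with the same sign. The count of 24 was 6, 5, 7 and 6 without male 1, male 2, female 1 and female 2. With the preparation as a block Chka (adjusted p = 0.0571) and Mthfd2 (0.0567) did not pass. In day 7 against day 1, 6 of the 83 rose and 0 fell, where 2.74% and 1.98% of all genes did. In day 14 against day 7, 1 rose and 0 fell, where 0.304% and 0.185% did. That balance turned with the setting, to 0 higher and 2 lower with the preparation as a block and 2 higher and 7 lower with a trended and robust spread. Over all days 0 of the 83 passed between the sexes, with an unadjusted p under 0.05 in 19, where 19.8% of all genes had one. Within single days 1 of the 83 was lower in males at day 1 (Fmo1), 0 passed at day 7 and 1 was lower in males at day 14 (Adi1, -0.49 ± 0.09, adjusted p = 0.0498). The call of Adi1 was lost after a second quantile normalization (0.0607), without male 1's day 14 array (0.284) and whichever preparation was left out (0.121 to 0.476).

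**Figure D4:**
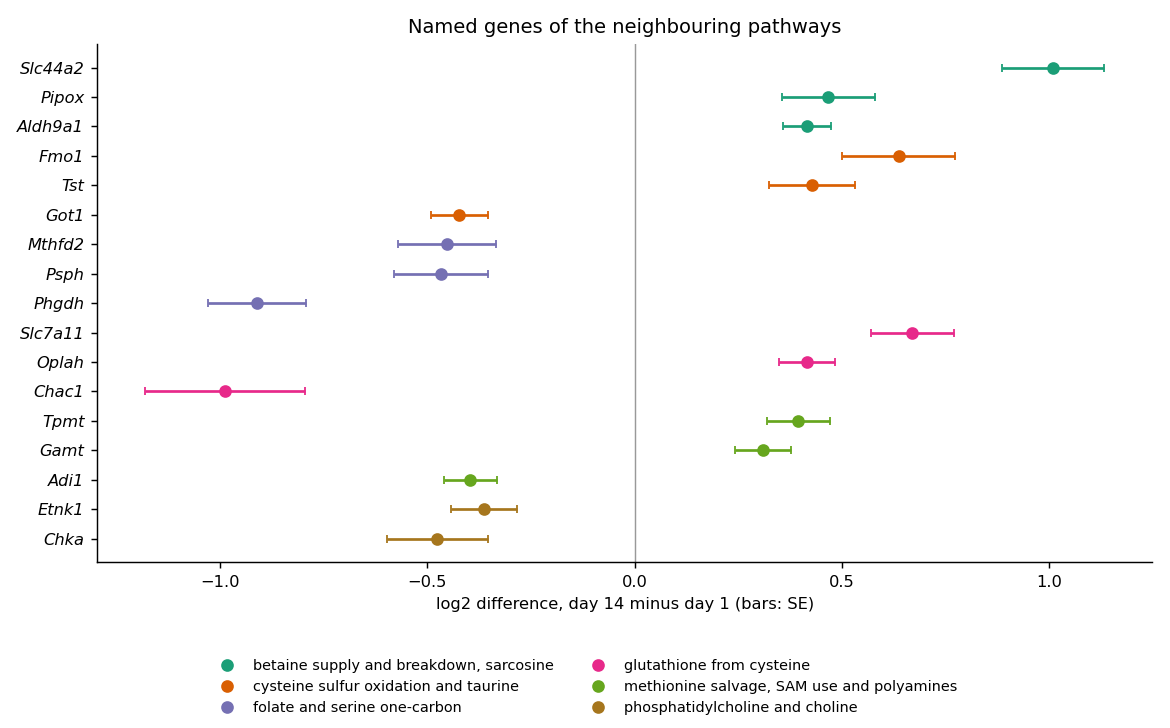
Log2 difference of day 14 minus day 1 (horizontal axis; points are limma estimates over 4 preparations per day, bars their standard errors) for the 17 named genes of the surrounding pathways, coloured by list. The values run from -0.99 (Chac1) to 1.01 (Slc44a2), and the 3 named genes of betaine supply and breakdown lie above 0.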

How the data were processed

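Biotin-labelled RNA of 12 spheroid samples was read on expression arrays. The deposited values are log2 levels per probe set. The submitters' processing notes name Transcriptome Analysis Console 4.0, Partek 7.0 and RMA, a method of background correction, normalization and probe summary, without their roles or order. The genome build, the annotation and any filter are unstated there. Scanner files were not analysed here, and the number of sample columns not used was 0. There were 13081 probe sets, of which 11889 had 1 symbol in the platform annotation, 1192 none and 0 several. All 11889 matched a gene list (GRCm38.p6) and 0 were renamed. For the 19 symbols with several probe sets the highest mean was kept, leaving 11861 genes.

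Groups came from the sample titles. Comparisons used R 4.3.3, limma 3.58.1 (lmFit, contrasts.fit, eBayes), with 1 mean for each of 6 groups of sex and day. Sex over all days used preparation means. Tests were two-sided, adjusted by Benjamini-Hochberg over all genes at 0.05, and the script was tested on simulated data. Precision is limited by the number of arrays, with a standard error of 0.0946 between days, 0.134 between sexes within a day and 0.076 over all days at the median gene. P-values reflect the spread between pools of animals.

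Arrays with the same sex and donor number come from 1 preparation, so the numbers pair days by the labels. Deviations from group means of the same preparation correlated across genes at r = 0.104, 0.224 and 0.0359 in males and 0.0777, 0.324 and 0.0657 in females for days 7 and 1, 14 and 7, and 14 and 1. The preparation as a block was an alternative, as were a trended and robust spread, median centring, a second quantile normalization, the mean of probe sets, a mean level of at least 6, each preparation left out and, chosen after seeing the data, the array of male 1 at day 14 left out. All 10 members were named. From each of 6 lists of other pathway genes up to 3 with the largest change that passed in day 14 against day 1 were named, and likeness used 3 genes per member. The members and lists were chosen with earlier results of these data known.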

Additional observations from a re-analysis of the deposited data

How the results depend on the processing

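Of the 10 members, the number called was 5 for day 14 against day 1, 1 for day 14 against day 7 and 3 for day 7 against day 1, and 0 in each comparison of the sexes and of their changes. These counts were the same under median centring, a second quantile normalization and the mean of probe sets. With the preparation as a replicate block the counts were also 5, 1 and 3 between days and 0 for the sex difference in each change, so the pairing of days changed no member's call. For the sexes at each day the preparation was a random block instead, with a correlation of 0.038 between its arrays. Those counts were also 0, but male and female preparations are not paired, so they do not bear on the pairing. Sex over all days has no such block. The trended and robust spread gave 6 for day 14 against day 1 and 2 for day 14 against day 7. For the sexes it gave 3, 1 and 3 at days 1, 7 and 14, and 5 over all days. Keeping genes with a mean level of at least 6 gave 3 and 2 for the sexes at days 1 and 14 and 3 over all days. With 1 preparation left out the counts ran from 1 to 4 for day 14 against day 1, 0 to 0 for day 14 against day 7 and 0 to 1 for day 7 against day 1. Without male 1's day 14 array they were 2, 0 and 3. Among all genes the calls were 58 for day 14 against day 7 (101 with the block, 103 with the mean level minimum, 309 with the trended spread, 0 to 8 with 1 preparation left out) and 560 for day 7 against day 1 (956 trended, 40 to 75 with 1 left out). They were 1706 for day 14 against day 1 (494 to 826 with 1 left out, 1143 without male 1's day 14 array, 2183 trended). For the sexes at days 1, 7 and 14 and over all days they were 91, 42, 126 and 21, against 292, 178, 411 and 974 trended and 126, 70, 171 and 282 with the mean level minimum. Leaving out 1 preparation gave 3 to 21, 4 to 18, 11 to 113 and 3 to 26. Leaving out male 1's day 14 array gave 29 at day 7, 8 at day 14 and 9 for day 14 against day 7. The sex difference in day 14 against day 1 had 0 calls, against 1 with the block, 14 trended and 17 without male 2, and that in day 14 against day 7 had 0, against 1 without male 2. Of the 83 other pathway genes the calls were 6 for day 7 against day 1 (19 trended, 15 with the mean level minimum, 0 to 1 with 1 preparation left out) and 1 for day 14 against day 7 (2 with the block, 9 trended, 2 with the mean level minimum). Signs turned only for single-gene values that had not passed. In day 7 against day 1, Ahcy was 0.0228 after the second quantile normalization and ran from -0.045 to 0.0159 with 1 preparation left out, Bhmt from -0.0222 to 0.262 and Cdo1 from -0.0165 to 0.0348. In day 14 against day 1, Cbs ran from -0.00499 to 0.199 and Gnmt from -0.295 to 0.0307. Over all days between the sexes Bhmt ran from -0.103 to 0.0754 and Cbs from -0.077 to 0.0419. Fits without a preparation hold fewer arrays, and the trended spread and the mean level minimum change the spread and the genes tested; why each moved a call was not tested.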
